A study of Mus musculus with 6 samples.

Results

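The genes described here are those of the piRNA pathway and of the germ granules in which its proteins gather, in testes of 8-week-old mice. They were chosen by symbol from a list of 33 genes, covering PIWI proteins, Tudor proteins, piRNA processing factors and genes of transposon control, and all 33 were found once each among the 36652 genes of the deposited table. RNA sequencing had been done on 3 testis libraries labelled Ccdc117ko and 3 labelled WT. The labels give neither strain nor allele and describe no treatment; whether each library came from its own mouse is not stated, so the p-values below rest on a spread between libraries that may be technical. Values are read counts scaled to a common depth by the authors, called normalized counts below.

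piRNAs are short germline RNAs that guide PIWI proteins to transposon and other transcripts. Long single-stranded precursors are cut at the mitochondrial surface, loaded into PIWI proteins, trimmed and methylated, while Tudor proteins bind methylated arginines of the PIWI proteins and hold the machinery in cytoplasmic granules. In mouse testis these granules are the intermitochondrial cement of spermatocytes and the chromatoid body of round spermatids, and the abundant piRNAs of pachytene spermatocytes depend on the transcription factor A-MYB, the product of Mybl1.

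Because A-MYB is known to act on promoters of piRNA pathway genes, RefSeq promoters (GRCm38.p6, 250 bases before to 50 after each start) were searched for the MYB core hexamers CAGTTA and CAGTTG and also CCGTTA and CCGTTG, on both strands. Entries matched 27 members with 39 promoters; none was held for Mybl1, Piwil2, Pnldc1, Rnf17, Tdrd6 and Tsnax. The promoters of the 3 called members that have one, and of Piwil1, the most abundant PIWI gene, are given 5′ to 3′ on the strand of the gene, with the hexamers in capitals.
Gtsf1: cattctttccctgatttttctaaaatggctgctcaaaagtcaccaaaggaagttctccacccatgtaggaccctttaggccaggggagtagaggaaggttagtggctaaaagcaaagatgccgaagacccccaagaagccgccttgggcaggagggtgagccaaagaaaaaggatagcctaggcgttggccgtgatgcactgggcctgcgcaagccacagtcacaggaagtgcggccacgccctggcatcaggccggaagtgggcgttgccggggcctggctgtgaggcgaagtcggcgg
Gtsf1l: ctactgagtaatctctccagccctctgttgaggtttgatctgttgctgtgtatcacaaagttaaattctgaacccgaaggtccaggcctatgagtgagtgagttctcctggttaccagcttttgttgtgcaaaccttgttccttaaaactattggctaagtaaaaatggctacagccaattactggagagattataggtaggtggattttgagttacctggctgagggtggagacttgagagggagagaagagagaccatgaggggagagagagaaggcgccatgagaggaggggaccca
Mov10: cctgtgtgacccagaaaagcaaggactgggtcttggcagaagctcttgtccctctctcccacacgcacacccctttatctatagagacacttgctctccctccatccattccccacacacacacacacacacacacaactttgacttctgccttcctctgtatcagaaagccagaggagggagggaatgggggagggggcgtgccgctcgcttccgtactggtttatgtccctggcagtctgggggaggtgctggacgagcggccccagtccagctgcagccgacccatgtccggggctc
Piwil1: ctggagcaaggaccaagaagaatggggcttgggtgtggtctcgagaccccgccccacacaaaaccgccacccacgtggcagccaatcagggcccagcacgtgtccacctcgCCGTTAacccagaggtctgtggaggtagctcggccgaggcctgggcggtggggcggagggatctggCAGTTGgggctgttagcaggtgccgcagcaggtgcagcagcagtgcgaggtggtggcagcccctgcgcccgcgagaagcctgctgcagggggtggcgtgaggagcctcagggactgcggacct
These lie at chr15:103430378-103430677 (minus strand), chr2:163089552-163089851 (minus), chr3:104818514-104818813 (minus, 1 of 2 starts held) and chr5:128735996-128736295 (plus). The RefSeq start of Gtsf1l lies upstream of the GENCODE gene, and that of Piwil1 inside it. The Piwil1 promoter held 2 hexamers, CCGTTA beginning at -139 and CAGTTG beginning at -73 from the start, and those of Gtsf1, Gtsf1l and Mov10 held none. Across the members 12 of 39 promoters (30.8%) held a hexamer, against 28.3% of all 32851 promoters. Promoters with 2 or more hexamers were 3 of 39 (7.7%) for the members and 5.1% of all promoters. Some promoters of the same gene overlap, so a site can count more than once. By gene, 9 of the 27 members held a hexamer in any promoter. The median GC content was 61.3% for member promoters and 52.7% for all promoters. A match is a description of the letters in these windows.

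The libraries held 38521519 to 39368277 whole reads in Ccdc117ko and 35791616 to 43461692 in WT. Of all genes tested 1212 were higher and 1016 lower in Ccdc117ko, and with upper-quartile scaling 1542 and 814. Ccdc117 itself had 3478, 3772 and 3908 normalized counts in the Ccdc117ko libraries and 3657, 3826 and 3931 in the WT libraries. That is a log2 change of -0.03 (limma adjusted p = 0.763), so the gene-level total does not check the genotype of a library. Defining markers of the tissue were present: the normalized counts of the round spermatid markers summed to 83404 to 87088 in Ccdc117ko and 67241 to 73860.2 in WT, and those of the Sertoli markers to 65501 to 67662 in Ccdc117ko and 71882 to 74095 in WT. Clu averaged 42018 normalized counts and made up most of the Sertoli sums (log2 change -0.12, limma adjusted p = 0.0508). In these whole testes, fewer cells of a type and less RNA per cell cannot be told apart.

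Most piRNA pathway genes did not pass the test. In limma-trend, fitted to all 32783 genes that averaged 0.5 normalized counts or more, 2 members were higher and 2 lower in Ccdc117ko at an adjusted p under 0.05, and 29 did not pass. The higher genes were Gtsf1 and Gtsf1l, whose products partner PIWI proteins, and the lower ones were Mybl1 and Mov10. All 33 members passed the filter. The share called was 12.1%, against 6.80% of all genes tested (3.70% higher and 3.10% lower) and 15.2% of genes that averaged 200 normalized counts or more, an abundance that 32 of the 33 members reached. The members' share was near that of genes as abundant. Their median log2 change, Ccdc117ko minus WT, was -0.01 (0.01 with upper-quartile scaling), against 0.00 over all genes tested, with 13 above and 20 below 0. In 12 of 33 members (36.4%) the 3 Ccdc117ko and the 3 WT values did not overlap, 4 of them higher and 8 lower, against 27.0% of all genes tested (13.7% higher and 13.3% lower). The no-overlap share of genes as abundant as the members was not taken, so 36.4% and 27.0% are not matched for abundance. The authors' deposited table gives an FDR under 0.05 to the same 4 members and to Piwil1, 2 higher and 3 lower; over all genes that share is 11.5% (5.78% higher and 5.77% lower). The 95% interval of the log2 change lay within 0.3 of 0 for 26 of the 33. That margin is wider than the called changes of Gtsf1 (0.28) and Mov10 (-0.24). Some of these intervals exclude 0, among them that of Piwil1 (-0.27 to -0.07), so an interval inside the margin does not mean no change.

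**Figure D1:**
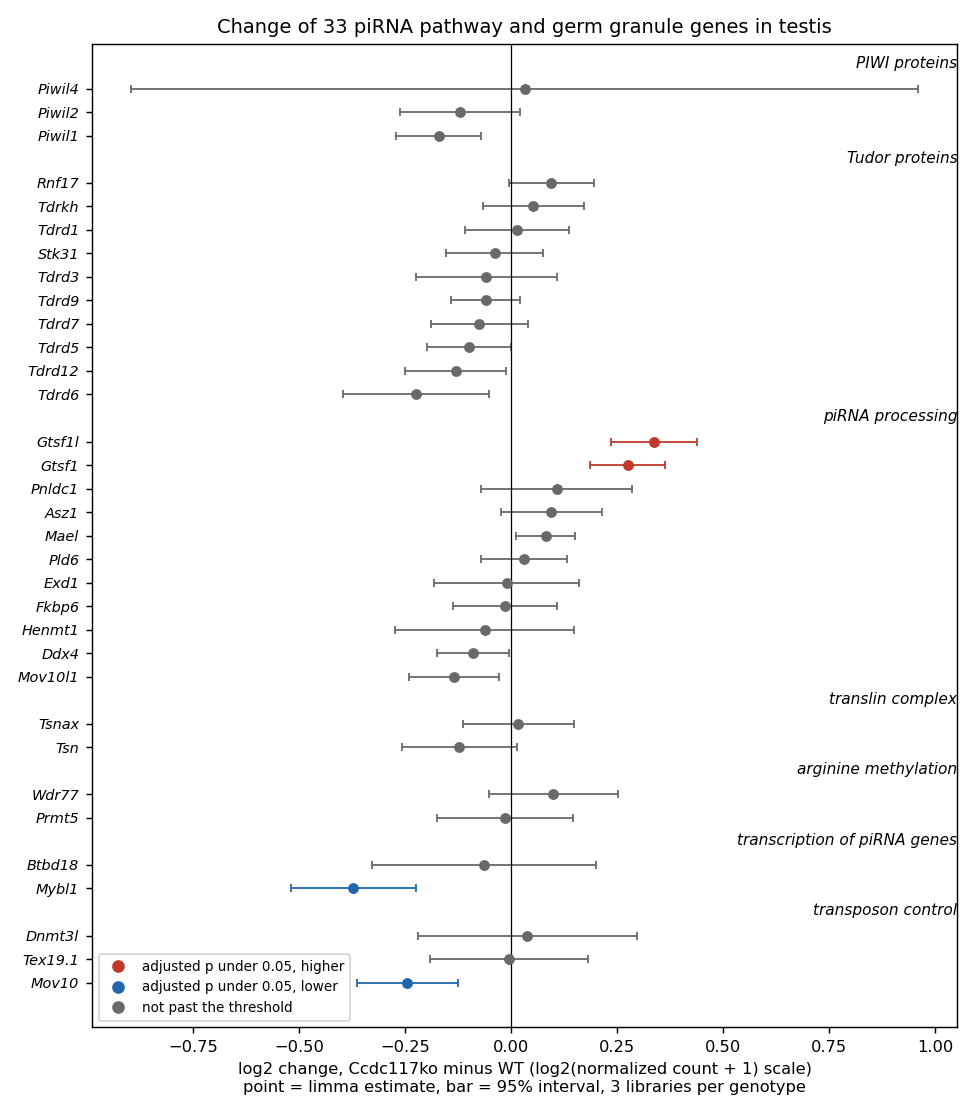
Log2 change of each of the 33 members, Ccdc117ko minus WT (horizontal axis), grouped by role, with the limma estimate as a point and its 95% interval as a bar (3 libraries per genotype). Gtsf1l at 0.34 and Gtsf1 at 0.28 lie highest of the members, Mybl1 at -0.37 and Mov10 at -0.24 lowest, and the interval of Piwil4 is the widest.

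Members differed over a wide range of level. Per kilobase of the longest transcript, Mael, a granule protein needed for transposon silencing, had the highest level of the 33 at 27935 ± 972 normalized counts per kilobase (SD over 6 libraries), higher than 99.7% of protein-coding genes tested. Gtsf1l (15427 ± 2028) and Gtsf1 (11739 ± 1274) came next, then the RNA helicase gene Ddx4 (5372 ± 231) and Piwil1 (3279 ± 245). Tdrd7 (2711 ± 139) and Tdrd6 (2623 ± 301) were within their spread of each other, as were Pld6 (1416 ± 42.1) and Fkbp6 (1401 ± 57.2), and also Tdrd9 (1056 ± 30.8), Tdrd1 (1051 ± 49.6) and Piwil2 (1047 ± 74.8). At the low end were Exd1 (138 ± 8.46), Btbd18 (71.8 ± 6.98) and Piwil4 (6.33 ± 2.63). The summed reads of the 33 genes took 0.450% to 0.473% of the reads of each Ccdc117ko library and 0.458% to 0.472% of each WT library.

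Among the PIWI genes none passed the threshold. Piwil1 (MIWI), the PIWI protein of pachytene spermatocytes and round spermatids, lies on chromosome 5 from 128702524 to 128755474 on the plus strand in mm10 and its promoter is printed above. It had 12299, 12068 and 12793 normalized counts in Ccdc117ko libraries, against 13598, 13548 and 14713 in WT libraries. Every Ccdc117ko library was below every WT library, and the means were 12387 ± 370.1 in Ccdc117ko and 13953 ± 659 in WT (SD, n = 3 each), a log2 difference of -0.17 (SE 0.04, limma adjusted p = 0.0559). The authors' deposited table gives Piwil1 an FDR of 0.000611. When only the genes averaging 10 or more were fitted, the limma adjusted p was 0.019, and the threshold was missed when WT replicate 3 was left out (0.0885), or Ccdc117ko replicate 1 (0.0592) or replicate 2 (0.0962).

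Piwil2 (MILI), a PIWI protein made from fetal germ cells to round spermatids, had 4599, 4855 and 5351 in Ccdc117ko libraries and 5606, 5135 and 5342 in WT libraries. Ccdc117ko replicate 3 lay inside the WT range, and the log2 difference was -0.12 with a 95% interval of -0.26 to 0.02 (limma adjusted p = 0.286). Piwil4 (MIWI2), a nuclear PIWI protein of fetal germ cells, had the lowest level of the 33, with 21.0, 23.4 and 16.1 in Ccdc117ko libraries and 36.9, 14.4 and 13.8 in WT libraries. WT replicate 1 was the highest of the 6 by a wide margin, and the 95% interval ran from -0.90 to 0.96, so a difference inside it was not detectable at this depth.

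**Figure D2:**
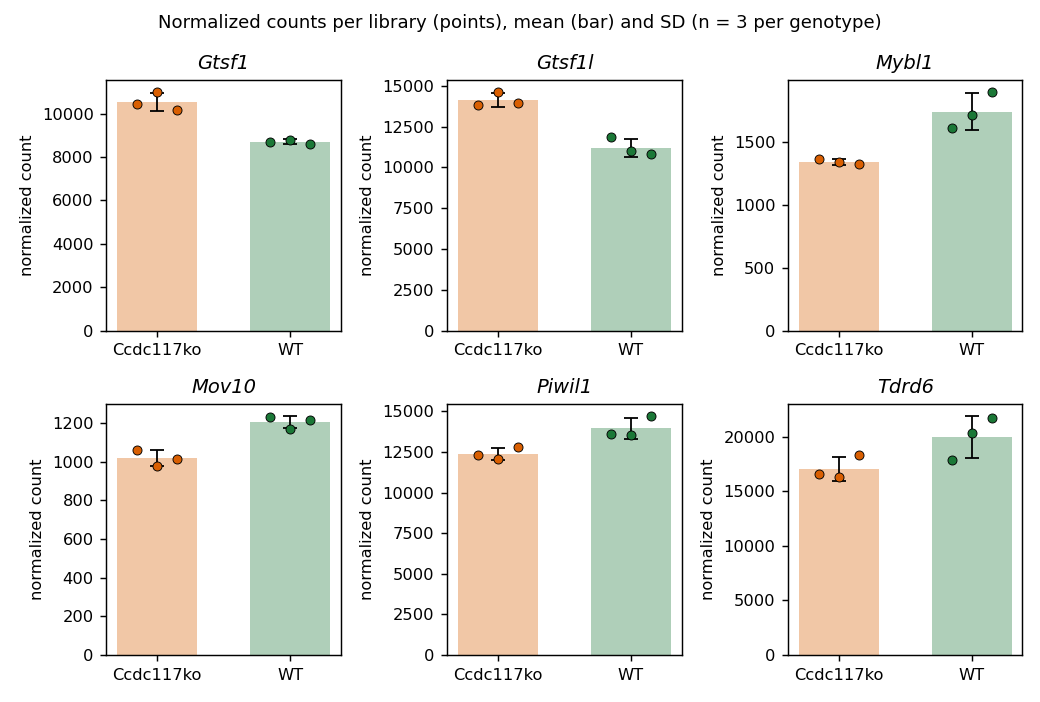
Normalized counts per library (points), with the mean (bar) and SD (whisker) of Ccdc117ko and WT libraries (n = 3 each), for the 4 called members and for Piwil1 and Tdrd6. Genotypes do not overlap in 5 of the panels; in Tdrd6 the highest Ccdc117ko library (18330.5) lies above the lowest WT library (17894).

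No Tudor gene passed the threshold: of 10, 3 had a log2 change above 0 and 7 below, with a median of -0.06. Tdrd6, a scaffold of the chromatoid body, had the lowest value of the 10. Its normalized counts were 16582, 16276 and 18330.5 in Ccdc117ko libraries and 17894, 20314 and 21696 in WT libraries, a log2 difference of -0.22 (SE 0.07, limma adjusted p = 0.119). When only the genes averaging 10 or more were fitted, its adjusted p was 0.0318, and the threshold was missed when WT replicate 2 (0.0953), WT replicate 3 (0.126), Ccdc117ko replicate 1 (0.0918) or Ccdc117ko replicate 2 (0.135) was left out. Tdrd12, a helicase-like partner of PIWI proteins, had -0.13 (95% interval -0.25 to -0.01, adjusted p = 0.181) and Tdrd5, which binds piRNA precursors, -0.10 (-0.20 to -0.00, adjusted p = 0.216); both had no overlap between genotypes.

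The other Tudor genes lay closer to 0. For genes described briefly from here on, the first value is the log2 difference, Ccdc117ko minus WT, and the bracketed value after it the limma adjusted p. Tdrd7, a chromatoid body protein, averaged 9819 in Ccdc117ko and 10332 in WT (log2 difference -0.07, adjusted p = 0.429). Tdrd9, a helicase that works with Piwil4 in fetal germ cells, had -0.06 (0.361) and Tdrd1, which binds Piwil2 in granules, 0.01 (0.923). Stk31, a Tudor protein with a kinase domain, had -0.04 (0.704), and Tdrd3, which reads methylated arginines in many cell types, -0.06 (0.687). Rnf17, a RING and Tudor protein of its own granules in meiotic cells, stood highest of the 10 with 6122, 6547 and 6760.2 in Ccdc117ko libraries and 6146, 6064 and 5973 in WT libraries, a log2 difference of 0.09 (adjusted p = 0.246). After a trend with transcript length and GC content was removed from each library, Rnf17 passed, at 0.17 (limma adjusted p = 0.0488). Tdrkh, the mitochondrial Tudor protein that brings PIWI proteins to the trimming enzyme, had 0.05 (0.602). Of its longest transcript, 39.1% of 50-base words occur in another gene when both strands are searched. That share can include Oaz3, which overlaps Tdrkh on the opposite strand. Reads of Tdrkh may therefore be shared, in part depending on whether they were counted by strand, which is not stated. Oaz3 averaged 70036 normalized counts and Tdrkh 1681. Within Ccdc117ko, replicate 3 was the highest library for 9 of the 10 Tudor genes and for 20 of all 33 members, and replicate 1 was the lowest for 19 of the 33. The same count was not made over all genes, so this order may not be particular to the members.

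**Figure D3:**
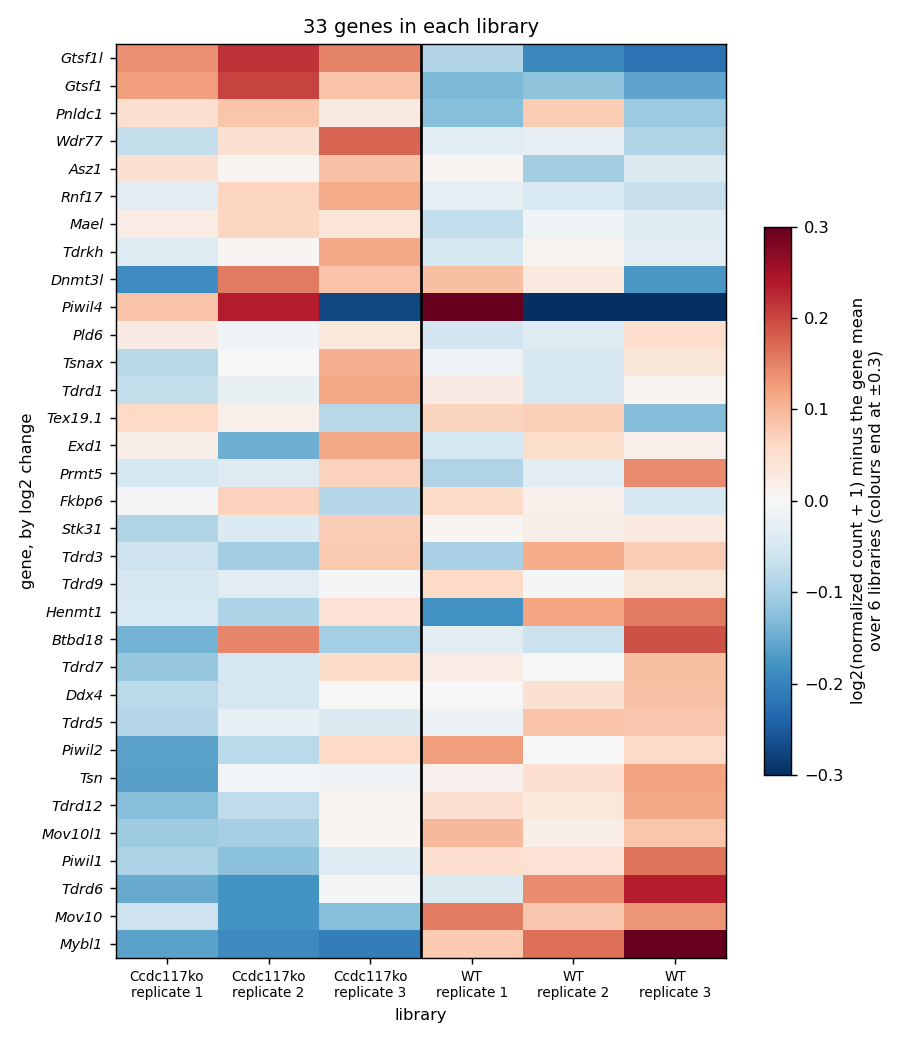
Colour gives how far a library lay from the mean of its gene over 6 libraries, on the log2(normalized count + 1) scale and ending at ±0.3, for 33 members in the order of their log2 change. Ccdc117ko libraries are on the left and WT libraries on the right. Gtsf1l, Gtsf1, Mov10 and Mybl1 split by genotype about the gene mean, as do Mael, Piwil1 and Tsn, which were not called. For many other genes libraries of 1 genotype lie on both sides of the gene mean.

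The 2 members that rose encode a related pair of small zinc-finger proteins. Gtsf1, which stimulates target cutting by PIWI proteins, lies on chromosome 15 from 103402405 to 103430470 on the minus strand, and Gtsf1l, its paralog, on chromosome 2 from 163087034 to 163087855 on the minus strand. Gtsf1 had 10428, 11007 and 10156 normalized counts in Ccdc117ko libraries, against 8709, 8803 and 8580.0 in WT libraries. Gtsf1l had 13845, 14635 and 13965 in Ccdc117ko libraries, against 11839, 11010.1 and 10791 in WT libraries. For both, the lowest Ccdc117ko library was above the highest WT library. Means were 10531 ± 435 in Ccdc117ko and 8697 ± 112 in WT for Gtsf1, a fold of 1.21, and 14148 ± 426 in Ccdc117ko and 11213 ± 553 in WT for Gtsf1l, a fold of 1.26 (SD, n = 3 each). The log2 changes were 0.28 (SE 0.04, limma adjusted p = 0.0154) and 0.34 (SE 0.04, adjusted p = 0.0135). The third gene of the family, Gtsf2, a neighbour of Gtsf1 on chromosome 15 and not a member, rose as well, with 2638, 2843 and 2756 in Ccdc117ko libraries and 2310.4, 2293 and 2173 in WT libraries (log2 change 0.28, adjusted p = 0.0193). All 3 transcripts are short, at 819, 822 and 726 bases for Gtsf1, Gtsf1l and Gtsf2. Once the trend with length and GC was removed, Gtsf1l was still called at 0.21 (0.0215), while Gtsf1 had 0.14 (adjusted p = 0.0594, and 0.0222 with the trend fitted on all genes tested) and Gtsf2 0.10 (0.254).

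Other piRNA processing genes did not pass. Mael averaged 48575 ± 695 in Ccdc117ko and 45902 ± 959 in WT (SD, n = 3 each), with all Ccdc117ko libraries above all WT libraries, a log2 difference of 0.08 (limma adjusted p = 0.151); with length and GC removed the difference was 0.01. Asz1, an anchor of the mitochondrial granule, had 1050.3, 1022 and 1081 in Ccdc117ko libraries and 1021, 945 and 987 in WT libraries, without overlap (log2 difference 0.10, adjusted p = 0.323). The helicase genes lay below 0 without overlap between genotypes, Mov10l1, which feeds precursors into processing, at -0.13 (adjusted p = 0.129) and Ddx4, the mouse Vasa protein, at -0.09 (0.2). Pld6, the mitochondrial nuclease that cuts precursors, had 0.03 (0.746), Pnldc1, which trims piRNA ends, 0.11 (0.469), and Henmt1, which methylates them, -0.06 (0.745). Fkbp6, a co-chaperone of PIWI loading, had -0.01 (0.921) and Exd1, a partner of Tdrd12, -0.01 (0.969). The widest of these intervals was that of Henmt1, -0.27 to 0.15. Of its longest transcript 15.4% of 50-base words occur in another gene on either strand, which can include Gm9857, overlapping it on the opposite strand.

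Mybl1, which encodes A-MYB, fell by the most of the 33. It lies on chromosome 1 from 9667415 to 9700209 on the minus strand. The Ccdc117ko libraries had 1365, 1335 and 1321 normalized counts, against 1609, 1711 and 1897 in the WT libraries. The 3 Ccdc117ko values lay close together and below every WT value. The means were 1341 ± 22.4 in Ccdc117ko and 1739 ± 146 in WT (SD, n = 3 each), a fold of 0.77 and a log2 change of -0.37 (SE 0.06, limma adjusted p = 0.0206), and the call stood with length and GC removed (-0.30, adjusted p = 0.0334). Btbd18, a nuclear protein that promotes transcription of pachytene piRNA precursors, averaged 214 in Ccdc117ko and 224 in WT (log2 difference -0.06, 95% interval -0.33 to 0.20).

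Among genes of transposon control Mov10 fell. It encodes an RNA helicase that restricts retrotransposons, related to Mov10l1 and made in many tissues, and lies on chromosome 3 from 104794836 to 104818563 on the minus strand. Its values were 1061, 979 and 1014 in Ccdc117ko libraries and 1232, 1172 and 1215 in WT libraries, without overlap. The means were 1018 ± 41.5 in Ccdc117ko and 1206 ± 31.0 in WT (SD, n = 3 each), a log2 change of -0.24 (SE 0.05, limma adjusted p = 0.034), and -0.17 with an adjusted p of 0.0738 when length and GC were removed. Of its longest transcript 8.15% of 50-base words occur in another gene on either strand. Tex19.1, which limits retrotransposition in the germline, had -0.01 (0.992) and Dnmt3l, the cofactor of DNA methylation at transposons, 0.04 (0.895). Prmt5 and Wdr77 encode the enzyme and its partner that methylate arginines of PIWI proteins, with -0.01 (0.948) and 0.10 (0.429). In Wdr77 28.8% of 50-base words occur in another gene on either strand, which can include Atp5f1, overlapping it on the opposite strand. The translin complex, an RNA-binding nuclease, had Tsn at -0.12 (0.263, without overlap between genotypes) and Tsnax at 0.02 (0.91).

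With 1 library left out few genes of any kind passed: 789 higher and 479 lower without WT replicate 1, and at most 12 higher and 13 lower of all genes tested without any other library, so a call lost in these smaller fits says little of the gene. Gtsf1, Gtsf1l and Mybl1 kept an adjusted p under 0.05 without WT replicate 1 (0.0455, 0.0344 and 0.0376) and lost it when any of the other 5 was left out, with highest values of 0.107, 0.11 and 0.121. Mov10 lost it without any 1 of the 6 (0.0735 to 0.124). The log2 changes kept their sign throughout, at 0.24 to 0.30 for Gtsf1, 0.31 to 0.38 for Gtsf1l, -0.43 to -0.31 for Mybl1 and -0.28 to -0.22 for Mov10. When only the genes averaging 10 or more were fitted, where 8.35% of genes were higher and 8.25% lower, Gtsf1, Gtsf1l and Mybl1 were called whichever library was left out (adjusted p 0.00139 to 0.0143, 0.000152 to 0.00897 and 0.000909 to 0.0175). Mov10 was not called there without WT replicate 3 (0.0546) or Ccdc117ko replicate 2 (0.0755).

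Changes of the members went with transcript length, as they did for other genes. Over the 33 members Spearman's rho between log2 change and the length of the longest transcript was -0.46, and over the 14256 protein-coding genes averaging 50 normalized counts or more it was -0.39; genes share their libraries and are not independent. The 6 members shorter than 1818 bases had a median log2 change of 0.06 and the other 27 a median of -0.06. By length the 11 shortest members had a median of 0.04, the 11 in the middle -0.09 and the 11 longest -0.06. The fall over the members was therefore not steady. For all protein-coding genes of that abundance the median was 0.10 in the shortest of 5 bins, which ends at 1818 bases, and -0.14 in the longest, which begins at 5186 bases. After the correction rho was 0.06 over the members and -0.00 over the genes, and the median of the members was 0.00. With the correction the members called were Gtsf1l and Rnf17 (higher) and Mybl1 (lower).

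**Figure D4:**
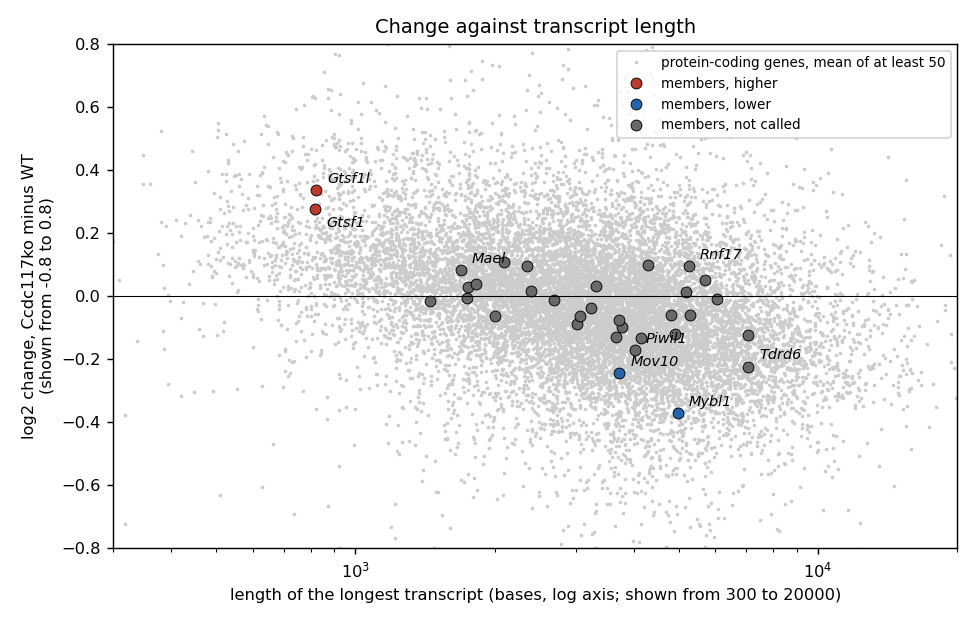
Log2 change, Ccdc117ko minus WT (vertical axis, from -0.8 to 0.8), against the length of the longest transcript in bases (log axis), for the 33 members (large points) and 14256 protein-coding genes (grey). Gtsf1 and Gtsf1l are the shortest members, at 819 and 822 bases, and Mybl1 at 4980 bases is the lowest.

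The members are made in different germ cell stages, whose markers were measured in the same libraries. Of 11 round spermatid markers 10 rose and none fell, with Spaca7 at 0.41 and Txndc8 at 0.32 (median 0.40). After the correction for length and GC 9 of these markers were higher and the median was 0.32, with Spaca7 at 0.28 (adjusted p = 0.0183) and Txndc8 at 0.14 (0.0642). Of 11 pachytene markers Spag6 and Cdc25c rose, at 0.37 and 0.31, and 9 did not pass (median 0.06); their sums were 273985 to 276311 in Ccdc117ko and 250667 to 267928 in WT. Both calls stood with length and GC removed (0.38 and 0.30). Of 12 markers of early meiotic prophase 2 rose (Rec8, 0.28; Syce3, 0.24) and 2 fell (Dmc1, -0.26; Mei1, -0.34), with a median of -0.09 and sums of 37051 to 39348 in Ccdc117ko and 39048 to 39123 in WT. The same correction left Rec8 higher (0.27), Dmc1 (-0.31) and Hormad1 (-0.20, adjusted p = 0.0489) lower, while Syce3 (0.07, 0.569) and Mei1 (-0.24, 0.0924) did not pass. Of 16 spermatogonial markers 2 fell, Etv5 (-0.44) and Kit (-0.52), and none rose (median -0.15, sums 7959 to 8397 in Ccdc117ko and 8879 to 9378 in WT). Corrected in this way, Etv5 (-0.34), Kit (-0.40) and Uchl1 (-0.23) were lower. Of 10 elongating spermatid markers Hils1 rose (0.28) and 9 did not pass (median 0.08, sums 853987 to 890984 in Ccdc117ko and 829130.0 to 880972 in WT); with length and GC removed Hils1 was higher at 0.15. No marker of these lists was at 0 in all libraries. The part of these marker differences in the changes of Gtsf1, Gtsf1l, Mybl1 and Mov10 was not tested.

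In 5 lists of related genes 2 genes rose and 11 fell. By list the share called ran from 0% (arginine methylation) to 30.8% (microRNA and siRNA genes). Over all genes tested it was 6.80% (3.70% higher and 3.10% lower), and 15.2% of genes that averaged 200 normalized counts or more. Of 15 further piRNA and chromatoid body genes Gtsf2 rose, Cnot7, a deadenylase subunit, fell (-0.24, limma adjusted p = 0.025) and 13 did not pass (median -0.01). After the correction for length and GC Cnot7 was lower (-0.20, 0.0432) and Elavl1, an RNA-binding protein, higher (0.21, 0.0256). None of 6 further genes of arginine methylation passed (median -0.02), the most abundant being Prmt7 at -0.11 (adjusted p = 0.0983) and Coprs at 0.09 (0.452). Of 8 further Tudor domain genes Spin1, a reader of histone methylation, fell (-0.25, adjusted p = 0.0416) and 7 did not pass (median -0.06). Corrected for length and GC, Spin1 had -0.18 (adjusted p = 0.117).

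The microRNA and siRNA genes were all below 0. Of 13, none rose, 4 fell and 9 did not pass (median -0.19). Those that fell were Tnrc6b (-0.42, limma adjusted p = 0.0207) and Tnrc6c (-0.25, 0.023), which encode silencing partners of Argonaute proteins, Xpo5, the exporter of microRNA precursors (-0.26, 0.0281), and the nuclease gene Dicer1 (-0.26, 0.0375). The summed level was 21469 to 22178 in Ccdc117ko and 23942 to 25061 in WT, without overlap. The median length of these transcripts is 7227 bases. With length and GC removed their median was -0.03, none of those 4 was called (Tnrc6b -0.26, Tnrc6c -0.08, Xpo5 -0.14 and Dicer1 -0.10, with adjusted p of 0.0584 to 0.35), and Prkra, a Dicer partner, was lower (-0.33, adjusted p = 0.0319).

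Genes of DNA methylation and repeat silencing had a median of -0.18 over 21 genes, with 1 higher, 5 lower and 15 not passing. Pphln1, a subunit of the HUSH silencing complex, rose (0.32, limma adjusted p = 0.0169). Hells, a chromatin remodeller needed for DNA methylation, fell (-0.36, 0.02), as did Trim28, the corepressor of zinc-finger proteins at retrotransposons (-0.17, 0.0203), and Tasor, another HUSH subunit (-0.27, 0.0445). Apobec3, a cytidine deaminase that restricts retroelements (-0.58, 0.0456), and Dnmt1, the maintenance DNA methyltransferase (-0.27, 0.0461), also fell. With length and GC removed Pphln1 was higher (0.36, adjusted p = 0.0122), and the median was -0.09. No gene of this list was then called lower, with values of -0.53 for Apobec3 (adjusted p = 0.067), -0.28 for Hells (0.055), -0.16 for Tasor (0.149), -0.14 for Dnmt1 (0.215) and -0.11 for Trim28 (0.0951).

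**Figure D5:**
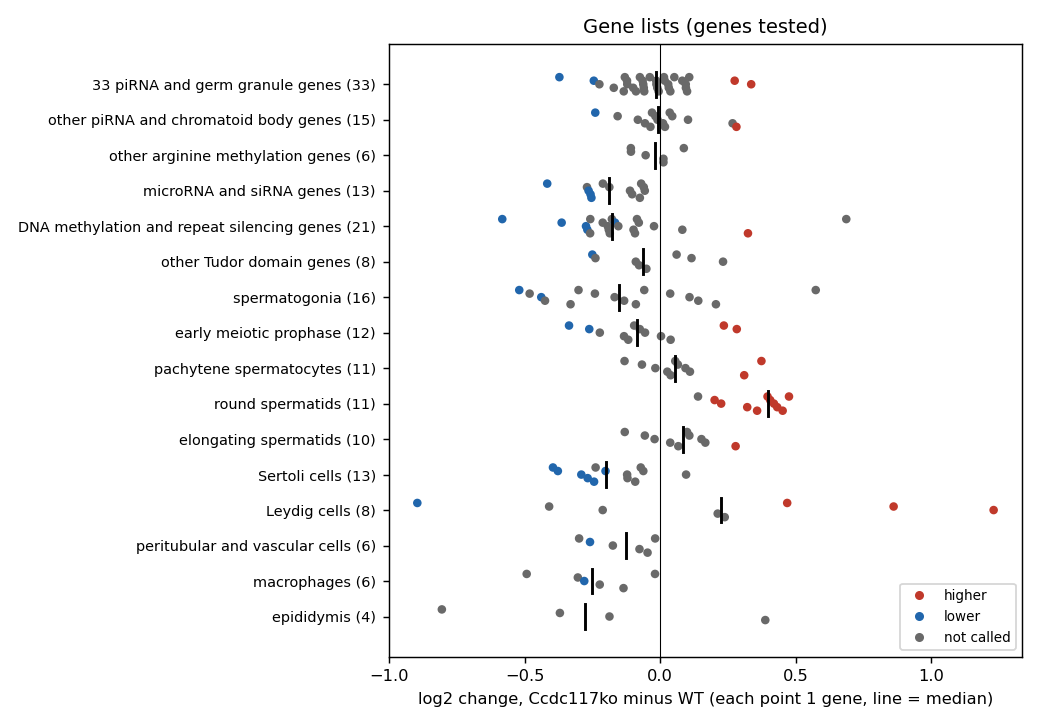
Log2 change, Ccdc117ko minus WT, of every tested gene (point) of the members, of 5 lists of related genes and of 10 lists of cell type markers, with the median of each list as a line. Members centre on -0.01, round spermatid markers on 0.40, and the microRNA and siRNA genes lie below 0.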

How the data were processed

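RNA from whole testes was extracted with TRIzol and treated with DNase, and a TruSeq stranded mRNA kit was used, per the labels' protocols. STAR, DESeq2 and the mm10 build appear, with no role, among what the submitters listed in their processing notes; how reads were counted, and whether by strand, is not given in the sources used here. Log2 values for each library were deposited in 1 table by the authors. No unit stands in the header, and the values were read as log2(normalized count + 1) because 100% of values under 500 reads are whole multiples of 1 step within 0.01. The deposited table also holds the authors' log2 fold change, p-value and FDR, whose test is not stated; only counts and FDRs credited to it were used.

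Limma-trend (limma 3.58.1, R 4.3.3) was fitted to the deposited values of genes averaging 0.5 normalized counts or more, with genotype as the only term. P-values are two-sided and Benjamini-Hochberg adjusted over all genes tested (threshold 0.05). Fold changes on this scale understate those of genes with few reads. The procedure was tested on simulated data. That test set a required recovery only for changes larger than any of the members. Lengths, GC and coordinates came from GENCODE M21 (GRCm38), which matched 36551 genes; for the length and GC correction, splines fitted on protein-coding genes averaging 50 or more were removed from each library.

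The members and lists were chosen with earlier results of these data known. Named genes are all members, up to 4 called genes of each related list (or its 2 most abundant), up to 2 called genes of each marker list, and Ccdc117. Apobec3, Dnmt1, Prkra, Elavl1, Mei1, Syce3, Hormad1, Uchl1, Hsd3b6 and Cyp17a1 were named after their values were seen. So were the Sertoli markers Cldn11, Clu, Aard, Inhbb, Gata4 and Wt1. Replicates of a genotype differed by more than sampling noise (chi-square per degree of freedom 4.68 to 7.50). Lcn5, Fam208a and Tdrd10 of the lists have no row under that symbol, and Lcn8 was below the filter.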

Additional observations from a re-analysis of the deposited data

How the results depend on the processing

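The sign of all 4 called members held under every alternative run, and none of the 33 changed sign with a call on either side. The numbers of members called higher and lower were 2 and 2 with no filter, with a pseudocount of 5 and with upper-quartile scaling, and 2 and 3 with limma-voom on the whole reads (Piwil1 added), an alternative chosen after seeing the data. With a mean of at least 10 they were 2 and 4 (Piwil1 and Tdrd6 added), among 1911 higher and 1887 lower of all genes. With upper-quartile scaling 7 genes of the related lists were lower, against 11. With each library left out in turn, 0 to 2 members were higher and 0 to 1 lower, 0 to 2 and 0 to 4 genes of the related lists, and 2 to 789 and 4 to 479 of all genes. Doing so with genes averaging 10 or more (added later) gave 1 to 4 members lower, 7 to 14 genes of the related lists lower, and 936 to 2041 higher and 778 to 1980 lower of all genes.

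With length and GC removed 1 member was lower, 2 genes of the related lists were lower and 582 of all genes were lower. With that trend fitted on all genes tested (added later) 3 members were higher (Gtsf1, Gtsf1l and Rnf17) and 1 lower, 4 genes of the related lists were higher and 0 lower, 431 of all genes were lower, and the median log2 change of the members was 0.0277. Together with a mean of at least 10 (added later) the correction gave 1 member and 5 genes of the related lists lower.

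The labels do not say whether the replicate numbers pair the libraries. Deviations of same-numbered libraries correlated at -0.08, -0.05 and 0.04, and those of unlike-numbered libraries at -0.10 to 0.13. Values this small show no pairing and cannot settle whether there is one. As a replicate block the replicate numbers gave 2 members higher and 0 lower, and 1 gene of the related lists higher and 4 lower. Of all genes 364 were then higher and 339 lower. The replicate block with the length and GC correction gave 0 members higher and 0 lower, 1 gene of the related lists higher and 0 lower, and 193 and 73 of all genes. EdgeR and DESeq2, planned as alternatives on whole reads, were not run. Limma-voom, on whole reads recovered from the deposited log2 values, was run in their place. Depth limits Piwil4, with a mean of 20.9 normalized counts.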

Other observations

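Markers of the somatic cells of the testis, outside the germline in which the piRNA genes act, also differed between genotypes. Of 13 Sertoli markers 6 were lower and none higher, with Kitl at -0.40 and Dhh at -0.29 (limma adjusted p = 0.0169 and 0.0201; median -0.20). With length and GC removed 4 were lower, and not all of them were among the 6. Kitl (-0.31, 0.0237) and Cldn11 (-0.23, 0.0258) stood, and Clu (-0.16, 0.0329) and Aard (-0.19, 0.0267) were added. Dhh (-0.19, 0.0993), Inhbb (-0.28, 0.0643), Gata4 (-0.18, 0.0659) and Wt1 (-0.21, 0.059) no longer passed. Of 8 Leydig cell genes 3 were higher, Star at 1.23, Hsd3b6 at 0.86 and Cyp17a1 at 0.47, and 1 was lower, Hsd3b1 at -0.90. The median of the 8 was 0.23, with sums of 79197 to 92139 in Ccdc117ko and 66862 to 77389 in WT. Hsd3b1 and Hsd3b6 are close paralogs, and whether reads were split between them was not tested. Of 6 peritubular and vascular markers Myh11 was lower (-0.26) and none higher, and of 6 macrophage markers Mrc1 was lower (-0.28) and none higher (medians -0.13 and -0.25). With length and GC removed neither passed, with Myh11 at -0.12 (adjusted p = 0.313) and Mrc1 at -0.19 (0.103); the 4 Leydig cell calls stood. None of 4 tested epididymal markers was called, and the normalized counts of the 5 in the table summed to 137 to 178 in Ccdc117ko and 168 to 201 in WT.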
